A study of Caenorhabditis elegans with 6 samples.

Results

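The C-type lectin (*clec*) genes of *C. elegans* were examined in worms that differ in the number of exophers, the large vesicles that body wall muscle cells release. Members were taken by name, as every gene of the deposited count table whose symbol starts with clec-. This gave 240 genes among the 46756 listed, and all 240 are annotated as protein coding. RNA was sequenced from whole hermaphrodites on adulthood day 2, in 3 low libraries, from worms with under 2 exophers each, and 3 high libraries, from worms with over 20. All worms were of strain ACH93, which carries 2 transgenes expressed in body wall muscle from the *myo-3* promoter, a red-labelled RPN-5 proteasome subunit and a green label of the mitochondrial outer membrane. The worms were fed *E. coli* OP50, no treatment is named for either group, and the groups are told apart by the exopher number for which the worms were picked. How many worms went into a library was not stated.

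C-type lectin domains are a protein fold named for calcium-dependent binding of sugars, and nematodes carry a greatly expanded family of genes with this domain. Many of the worm proteins have a signal for secretion, and a subset of the genes is known from infection studies, in which their transcripts rise in the intestine of worms fed pathogenic bacteria. For most of the family neither the ligand nor the function is known.

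The libraries held between 60511481 and 72909583 counts. Of the 240 members, 30 had no count in any library, 100 had counts but too few for a test, and 110 were tested for a difference between high and low. The 100 untested members had 58 counts at most over all 6 libraries and 1583 together, so what follows describes the 110 expressed members and not the family. The *msp* genes, which encode the major sperm proteins, stood apart between the groups. Their summed level was between 29.5 and 150 CPM (counts scaled to a library of 1e+06) in the low and between 0.555 and 0.729 CPM in the high libraries, with low replicate 1 highest. Transcripts of male somatic cells were near the limit of detection. The 8 genes of that list had between 41 and 62 counts together in each library. *cwp-1*, which marks male sensory neurons, was the only one with none. *cwp-4* had between 10 and 26 counts in a library. *mab-3* had 22, 34 and 29 counts in low replicates 1, 2 and 3 and 11, 14 and 17 in the high replicates. In RNA of whole worms, fewer cells of a type and less RNA per cell cannot be told apart.

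Few C-type lectin genes changed past the thresholds. All fold changes are high over low on the log2 scale. They and their p values came from the quasi-likelihood test of edgeR, adjusted by the Benjamini-Hochberg method over all 15883 genes tested. A gene is said to have risen or fallen where the adjusted p was below 0.05 and the absolute log2 fold change above 1. Of the 110 tested members, 4 rose (3.64%, against 2.95% of all genes tested) and 6 fell (5.45%, against 2.78%). The 4 were *clec-17*, *clec-78*, *clec-180* and *clec-233*, and the 6 were *clec-73*, *clec-79*, *clec-123*, *clec-151*, *clec-153* and *clec-160*. With DESeq2's Wald test the numbers were 4 (against 4.10% of all genes) and 8 (against 3.45%), and in edgeR with a replicate block they were 4 (against 4.29%) and 9 (against 3.68%).

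Most of the other members lay slightly below 0. The log2 fold change was negative in 82 of 110 members, or 74.5%, against 52.8% of all genes tested. The median was -0.33 over the members and -0.013 over all genes tested, and the middle of the family, from its lower to its upper quartile, ran from -0.55 to -0.0021. Normalized counts of the high libraries were all below those of the low libraries in 27 members (24.5%, against 9.96% of all genes), and all above in 6 (5.45%, against 11.8%). An unadjusted p below 0.05 was reached by 25 members with a negative fold change (22.7%, against 8.07% of all genes) and by 5 with a positive one (4.55%, against 8.98%). The direction did not come from a single library. As a median over the tested members, log2 CPM lay above the mean of each gene by 0.26, 0.11 and 0.11 in low replicates 1, 2 and 3, and at -0.049, -0.14 and -0.19 in the high replicates.

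**Figure D1:**
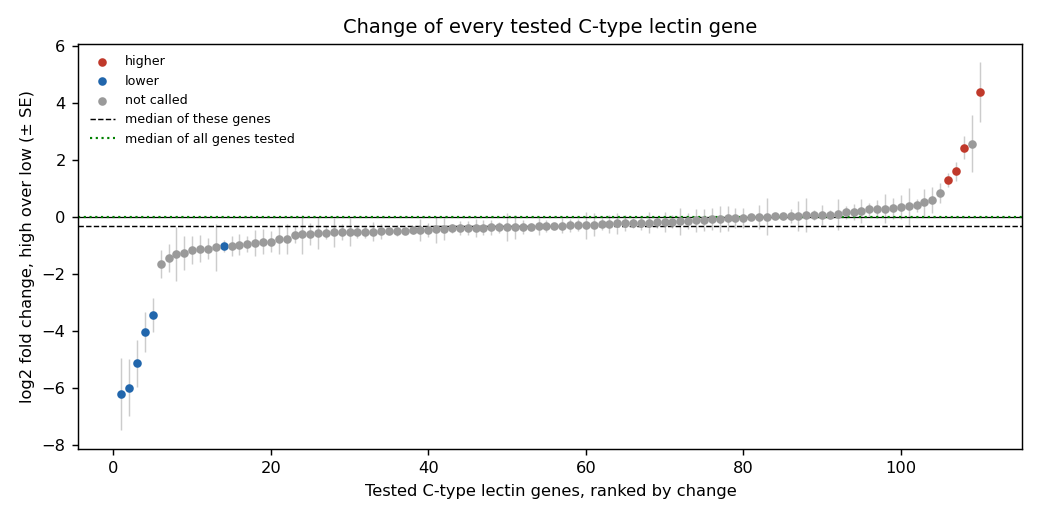
log2 fold change (high over low, with its standard error) of the 110 tested C-type lectin genes, ranked on the x axis. The dashed line is their median of -0.33, and the dotted line the median of -0.013 over all genes tested. At the left end 5 genes lie below -3, apart from the rest of the curve.

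The 5 largest falls were in genes of low expression that were almost undetected in the high libraries, *clec-153*, *clec-151*, *clec-79*, *clec-73* and *clec-123*. *clec-151* (WBGene00008659, chromosome III from 4628465 to 4631132) had 88, 46 and 15 counts in low replicates 1, 2 and 3 and 0, 2 and 0 in the high replicates. Summed over each group and scaled to library size, it was 79.9-fold lower in the high libraries, with an exact 95% interval of 21.7 to 665 that covers counting error only. Its adjusted p was 0.0169. *clec-153* (WBGene00008660, chromosome III from 4635247 to 4637534) had 79, 15 and 9 counts against 0, 1 and 0, a 110-fold lower sum with an interval of 19.4 to 4402 and an adjusted p of 0.0281. The high libraries thus held 2 and 1 reads of these genes in all. The size of either fall is known less well than its interval shows, since the interval leaves out the spread between replicates. *clec-151* and *clec-153* are next to each other in the order of protein-coding genes, on the same strand with 4114 bases between them.

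*clec-79* (WBGene00018548, chromosome IV from 3973349 to 3975721) had 178, 48 and 30 counts in low worms and 4, 1 and 2 in high worms. Its log2 fold change was -5.15 (SE 0.823, adjusted p = 0.0151). *clec-73* (WBGene00021579, chromosome IV from 3954030 to 3956195) had 281, 77 and 84 counts against 11, 14 and 2, and a log2 fold change of -4.05 (SE 0.710, adjusted p = 0.0190). *clec-123* (WBGene00021288, chromosome II from 3114234 to 3116762) had 199, 53 and 61 counts against 10, 13 and 6, and a log2 fold change of -3.46 (SE 0.587, adjusted p = 0.0179). In all 5 genes every low library lay above every high library, and low replicate 1 was the highest of the 6, as for the *msp* genes.

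The library pattern of the *msp* genes was therefore set beside that of the lectins. The low libraries ranked replicate 1, 3 and 2 by *msp* level, at 150, 71.4 and 29.5 CPM. The same order, with all high libraries lower, was found in 8 tested members, *clec-22*, *clec-73*, *clec-85*, *clec-86*, *clec-119*, *clec-123*, *clec-149* and *clec-173*, and in 694 of the 15883 genes tested. *clec-79*, *clec-151* and *clec-153* ranked replicate 1, 2 and 3 in place of it. *clec-79*, *clec-123* and *clec-173* were the members most alike to the *msp* sum by Pearson correlation of log2 CPM over the 6 libraries. No coefficient is given, because the groups sit apart on both measures. Normalized counts of *clec-173* were 1063, 1055 and 1060 in low replicates 1, 2 and 3 and 709, 767 and 786 in the high replicates, a log2 fold change of -0.49 with an adjusted p of 0.0568 that missed the threshold. Its low libraries differed by less than counting error, so their order carries no information. Low replicates 3 and 2 also lay close in *clec-22* (19.5 and 16.7 normalized counts), *clec-73* (96.5 and 80.6), *clec-85* (2708 and 2678) and *clec-123* (70.1 and 55.5). The order of those 2 libraries is therefore uncertain in these genes. The libraries lay further apart in *clec-86* (165.5 and 112) and *clec-119* (63.2 and 40.8). Of the list of 15 sperm genes, 13 were tested and all had a negative fold change (against 52.8% of all genes), with a median of -1.58. Among those that fell were the sperm phosphatase genes *gsp-3* and *gsp-4*, and *smz-2*. The part of sperm transcripts in the values of the lectins was not tested.

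**Figure D2:**
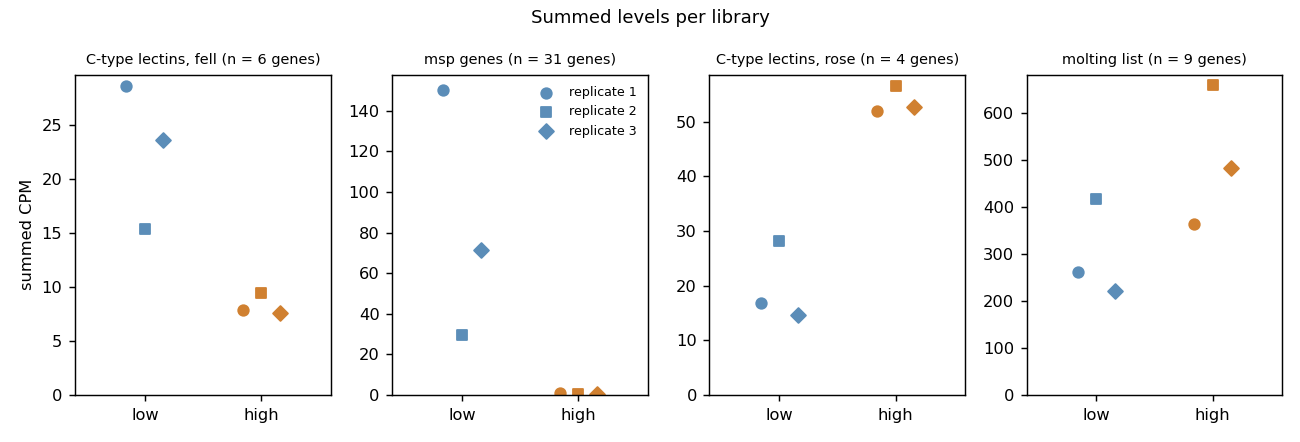
Summed CPM per library of the 6 C-type lectin genes that fell, the 31 *msp* genes, the 4 C-type lectin genes that rose and the 9 genes of the molting list, each on a linear axis from 0. Symbols mark the replicate number. The lectins that fell held 28.6, 15.4 and 23.6 CPM in low replicates 1, 2 and 3 and between 7.60 and 9.46 CPM in the high libraries.

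The sixth gene that fell was of another kind. *clec-160* (WBGene00017322, chromosome III from 8272956 to 8275971) was well expressed in all libraries, with 1243, 755 and 1188 counts in low worms and 549, 600 and 522 in high worms. The mean of its normalized counts was 1106 ± 292 in low and 540 ± 58.1 in high worms (SD, n = 3 each). The log2 fold change was -1.03 (SE 0.216, adjusted p = 0.0311). After scaling to library size the highest low library was replicate 3 and not replicate 1, so it did not follow the *msp* order. Its fold change lay just past the minimum of 1 and was -0.86 without low replicate 3.

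Beyond these 6, *clec-119* and *clec-86* passed the thresholds with DESeq2 and with the replicate block, and *clec-169* with the block alone. *clec-119* had 107, 39 and 55 counts in low worms and 17, 14 and 36 in high worms (log2 fold change -1.65, adjusted p = 0.102 in edgeR, 0.0318 in DESeq2 and 0.0355 with the block). *clec-86* had 307, 107 and 144 counts against 111, 77 and 82 (log2 fold change -1.12, adjusted p = 0.143, 0.0352 and 0.0309). *clec-86* shares 63 exon bases with *alh-10* on the other strand, and the sources do not say whether strand was used in counting. *clec-169* had 37, 76 and 57 counts against 11, 32 and 24, with an adjusted p of 0.166 in edgeR and 0.0170 with the block. In *clec-169* each high replicate was below the low replicate of its own number by a similar factor. *clec-166*, with 177, 55 and 206 counts against 52, 70 and 87, overlapped between the groups (log2 fold change -1.18, adjusted p = 0.275), since low replicate 2 was as low as the high libraries. Without low replicate 2 the adjusted p of *clec-166* was 0.0300.

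Among the 4 genes that rose, *clec-180* and *clec-78* were expressed in every library. *clec-233* had counts in every library but few in the low ones, and *clec-17* was near the limit of detection in the low libraries. *clec-180* (WBGene00017991, chromosome IV from 7568893 to 7573766) had 93, 129 and 71 counts in low worms and 936, 336 and 436 in high worms. The mean of its normalized counts was 101 ± 29.4 in low and 543 ± 285 in high worms (SD, n = 3 each). The log2 fold change was 2.42 (SE 0.403, adjusted p = 0.0167), and high replicate 1 stood well above the other high libraries. *mlt-9* and *qua-1*, genes of the molting list, were also highest in high replicate 1, with 927, 387 and 567 counts and 2715, 872 and 1140 counts in high replicates 1, 2 and 3. So was *nas-37*, while *mlt-8*, *mlt-11*, *noah-1*, *noah-2* and *fbn-1* were lowest there of the high libraries. The molting list as a whole held between 222 and 416 CPM in the low libraries. It held 363, 659 and 483 CPM in high replicates 1, 2 and 3, so its sum did not share the high replicate order of *clec-180*. All 9 of its genes had a positive fold change (against 47.2% of all genes), and *mlt-9* and *qua-1* rose. The part of these genes in the values of *clec-180* was not tested.

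*clec-78* (WBGene00018547, chromosome IV from 3989102 to 4014235) has 10850 bases of annotated exon, and its counts were 1097, 1675 and 770 in low worms and 2766, 3301 and 3171 in high worms. The log2 fold change was 1.29 (SE 0.250, adjusted p = 0.0247), the smallest of the 4 rises and the one with the most reads behind it. Low replicate 2 came nearest to the high libraries in *clec-78* and *clec-180*, and it also held the most molting transcripts of the low libraries. *clec-78* lies 13380 bases from *clec-79* on the same strand, with 3 protein-coding genes between them, and the 2 genes moved in opposite directions.

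*clec-233* (WBGene00009030, chromosome V from 16233924 to 16234898) had 24, 16 and 12 counts in low worms and 58, 45 and 64 in high worms, a log2 fold change of 1.59 (SE 0.337, adjusted p = 0.0323). *clec-17* (WBGene00008477, chromosome I from 12430028 to 12431500) had 2, 1 and 2 counts against 17, 88 and 11. Its log2 fold change was 4.37 (SE 1.04, adjusted p = 0.0498), and the group sums differed 21.6-fold. High replicate 2 alone gave 88 of the 116 counts in the high libraries. Without it the log2 fold change was 2.85. *clec-17* missed the threshold with limma-voom, at an adjusted p of 0.113, and with DESeq2's size factors in edgeR, at 0.0501. *clec-230*, with 0, 0 and 7 counts in low worms and 23, 11 and 14 in high worms, had a log2 fold change of 2.57 and an adjusted p of 0.238. Near *clec-230*, with 6342 bases and 2 protein-coding genes between them, lies *clec-229*, an untested member named here after its values were seen. *clec-229* had no count in the low and 7, 8 and 4 counts in the high libraries, which makes it at least 5.91-fold higher when 3 counts over the low group are taken as the floor.

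**Figure D3:**
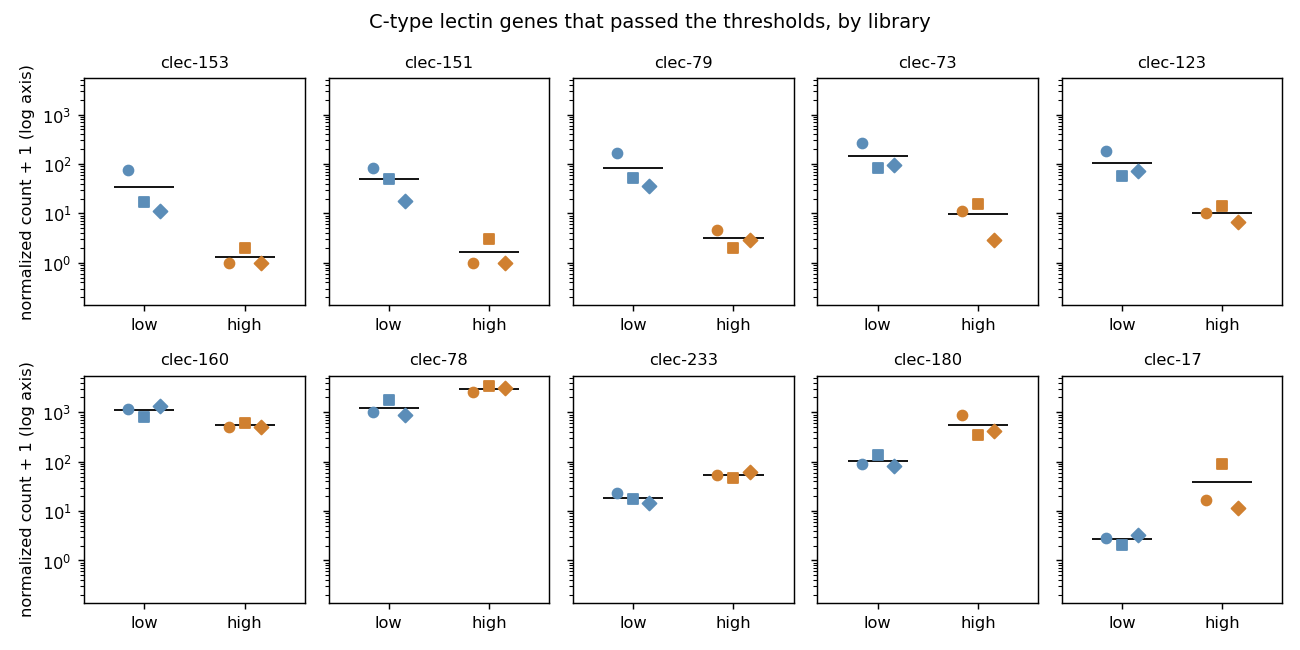
Normalized counts plus 1 (log axis) of the 10 C-type lectin genes that rose or fell, in low (blue) and high (orange) libraries. Circles, squares and diamonds are replicates 1, 2 and 3, and lines are group means. The groups do not overlap in any panel, and *clec-151* and *clec-153* have 2 high libraries at 0 counts.

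The calls were lost mainly when a high library was left out, and with them most calls over all genes. Without high replicate 1, 2 or 3 no member fell in edgeR (27, 14 and 17 members had an unadjusted p below 0.05 and a negative fold change), against 0.00%, 0.883% and 0.104% of all genes tested in those fits. In the same fits 0, 1 and 0 members rose (4, 4 and 5 at an unadjusted p below 0.05), against 0.0309%, 1.33% and 0.289% of all genes. The 1 was *clec-180*, without high replicate 2. Shares of all genes at an unadjusted p below 0.05 were not computed for these fits, so nothing is read from those counts. The fold changes of the lost genes stayed large. Without a high library the log2 fold change was between -5.72 and -4.82 in *clec-79*, between -4.55 and -3.58 in *clec-73* and between -3.76 and -3.20 in *clec-123*, and the adjusted p of these genes and *clec-151* was between 0.0523 and 0.0716. Without low replicate 1, 2 or 3, 4, 9 and 5 members fell, against 2.14%, 4.06% and 2.33% of all genes, and 1, 2 and 1 rose, against 1.23%, 2.84% and 1.17%. Without low replicate 2, *clec-86*, *clec-166* and *clec-190* fell beside the 6. Without low replicate 3 none of the 4 genes rose, and the 1 was *clec-230*, which then had no count in the low libraries (adjusted p = 0.0393). *clec-73*, *clec-79*, *clec-123* and *clec-151* fell whichever low library was left out. *clec-153* fell without low replicate 2 or 3. It did not pass the count filter without low replicate 1, which held most of its 103 low counts. Without a high library the log2 fold change of *clec-153* was between -8.07 and -5.77 and its adjusted p between 0.101 and 0.104. *clec-160* and *clec-78* passed only without low replicate 2, with an adjusted p of 0.0895 and 0.0605 without low replicate 3, and of 0.0785 and 0.0953 without low replicate 1. *clec-17* and *clec-233* passed in none of the 6 fits. The adjusted p of *clec-17* was between 0.0563 and 0.163 and that of *clec-233* between 0.0520 and 0.116. The direction of all 10 genes was the same in each fit that tested them.

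The immune list of 18 lectin genes known from infection studies was read next. Of the 13 members tested, 1 rose, *clec-17*, and none fell in edgeR, while *clec-86* fell in DESeq2 and in edgeR with the replicate block. With limma-voom *clec-17* did not pass. An unadjusted p below 0.05 was reached by 6 of the 13, *clec-17* and 5 members with a negative fold change, where 8.98% of all genes reached it with a positive and 8.07% with a negative one. Over the 110 tested lectins these shares were 4.55% and 22.7%. Of the 13, 11 members had a negative fold change, against 74.5% of the 110 tested lectins and 52.8% of all genes. The median of the 13 was -0.37, against -0.33 over the 110. The summed level of the 18 genes was between 642 and 801 CPM in the low and between 482 and 593 CPM in the high libraries. Most of that sum was a single gene, *clec-63*.

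*clec-63* (WBGene00009394, chromosome II from 12895638 to 12897446) had 36744, 41644 and 29580 normalized counts in low worms and 22602, 29349 and 25646 in high worms. The groups did not overlap, but low replicate 3 and high replicate 2 were nearly level, and the log2 fold change of -0.48 (SE 0.145) had an adjusted p of 0.115. *clec-65*, in the same run of genes, had 4197, 3428 and 3317 normalized counts against 2871, 2732 and 3126 (log2 fold change -0.33, adjusted p = 0.148). *clec-66*, next in that run, had a log2 fold change of 0.073 and an adjusted p of 0.906. *clec-85*, a target of the p38 MAPK pathway used to report its activity, had 3050, 2678 and 2708 normalized counts against 2508, 1854 and 2261. The groups did not overlap in *clec-85* and the means differed by more than the SD of either group, but its log2 fold change of -0.35 gave an adjusted p of 0.187. *clec-85* shares 397 exon bases with the gene Y54G2A.40 on its own strand, which leaves its count uncertain.

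*clec-49*, whose loss makes worms more sensitive to *Serratia marcescens*, had 999, 1416 and 1374 counts in low worms and 1026, 897 and 1018 in high worms, and the groups overlapped through low replicate 1 (log2 fold change -0.49, adjusted p = 0.255). *clec-39*, known for the same phenotype, had 1 count in each of 3 libraries and none elsewhere. *clec-67* had 608, 292 and 734 counts against 198, 230 and 506, a log2 fold change of -0.92 with an adjusted p of 0.383 and overlapping groups. *clec-41*, *clec-52*, *clec-7* and *clec-70* had log2 fold changes between -0.62 and -0.36 and adjusted p values between 0.618 and 0.791, and in each of them the groups overlapped. Single libraries set some of these values. The log2 fold change of *clec-70* was 0.35 without low replicate 1, that of *clec-52* was -0.019 without high replicate 2 and that of *clec-41* was -0.10 without high replicate 1. *clec-4* had 138, 119 and 139 counts against 211, 78 and 132 and a log2 fold change of -0.038. Also on the list, *clec-60*, whose reporter is used to follow intestinal infection, had 20, 5 and 2 counts against 5, 1 and 0. *clec-42*, *clec-61* and *clec-71* likewise had too few counts for a test.

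Genes outside the family were read for the same question. None of the 9 p38 effector genes tested passed the thresholds with edgeR, DESeq2 or limma-voom. All 9 had a negative fold change (against 52.8% of all genes), with a median of -0.48, and 4 had an unadjusted p below 0.05 (against 8.07% of all genes in that direction). Among the 9, *lys-2*, a lysozyme gene, had an adjusted p of 0.0376 at a log2 fold change of -0.48, under the fold minimum. Of 12 intestinal genes none passed with those tools. Of the 12, 11 had a negative fold change (against 52.8% of all genes), with a median of -0.27. An unadjusted p below 0.05 was reached by 4, all with a negative change (against 8.07% of all genes). The summed intestinal level was 2047, 2274 and 1598 CPM in low replicates 1, 2 and 3 and 1586, 1718 and 1201 CPM in the high replicates. The groups overlapped, while each high library lay below the low library of its own number. The part of this level in the values of the lectins was not tested. Among the 12 galectins, the other large family of worm lectins, none passed with the 3 tools and the median was -0.057. An unadjusted p below 0.05 was reached by *lec-3* with a positive change (against 8.98% of all genes). It was also reached by *lec-4* with a negative change (against 8.07%). No test compared these medians with that of the C-type lectins.

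**Figure D4:**
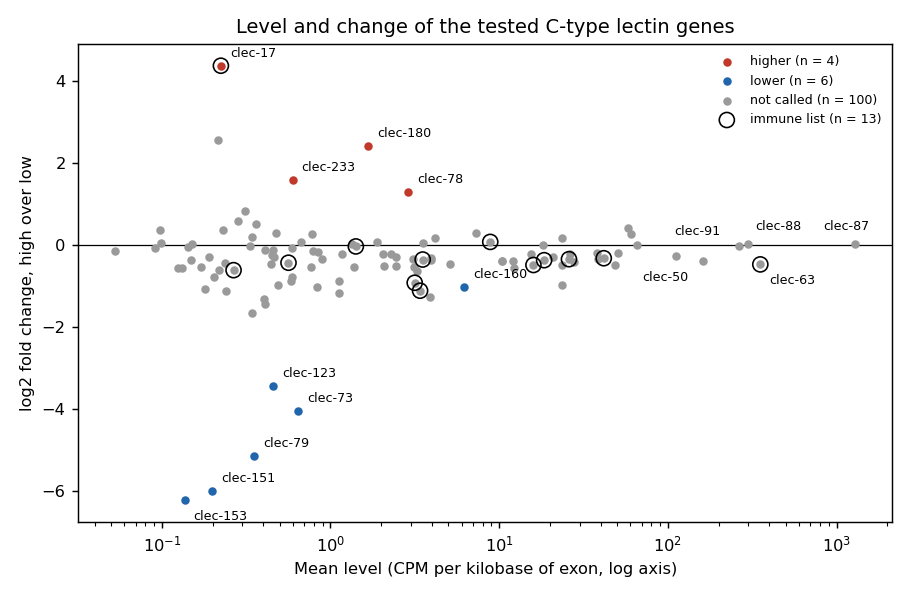
log2 fold change (high over low) of the 110 tested C-type lectin genes against their mean level in CPM per kilobase of exon (log axis). Red and blue points are the 4 genes that rose and the 6 that fell, and rings mark the 13 tested genes of the immune list. The 10 genes that rose or fell lie below 10.4 CPM per kilobase, and the most abundant genes lie at 0 or a little below.

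Expression was concentrated in a handful of members. Per kilobase of exon, *clec-87* was the most abundant at 1295 CPM, followed by *clec-63* at 353, *clec-88* at 298, *clec-91* at 264 and *clec-50* at 162 CPM. These 5 genes held 69.1% of all C-type lectin counts, and *clec-87* alone held 35.0%. *clec-87* had 79335, 79707 and 91288 normalized counts in low worms and 80353, 77373 and 95221 in high worms. Its log2 fold change was 0.015 with an SE of 0.113. *clec-88* and *clec-91* had log2 fold changes of 0.011 (SE 0.108) and -0.022 (SE 0.0946), and in these 3 genes the group means differed by less than the SD of either group. The summed level of all 240 members was between 3606 and 3796 CPM in the low and between 3287 and 3580 CPM in the high libraries. Every high library thus lay below every low library, though the gap between the nearest libraries was less than the range within either group.

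*clec-50* differed more between replicate numbers than between groups. Its normalized counts were 8588, 13345 and 17188 in low replicates 1, 2 and 3 and 6161, 9539 and 14123 in the high replicates. The groups overlapped, and the log2 fold change of -0.39 had an adjusted p of 0.679. Each high library lay below the low library of its own number, and with the replicate block the adjusted p was 0.00627. Counting the adjusted p alone and without a fold minimum, the block gave 16 members with a negative change (against 5.86% of all genes) and 5 with a positive one (against 6.52%). Among the 16 were *clec-50*, *clec-63*, *clec-85* and *clec-173*, each with a fold change under the minimum. *clec-186* was the only member with an adjusted p below 0.05 and a fold change under the minimum in the fit without the block, and is named after its values were seen. *clec-186* had 4478, 4910 and 4360 normalized counts in low worms and 3519, 2969 and 3239 in high worms (log2 fold change -0.50, SE 0.0865, adjusted p = 0.0186).

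The median fold change was also read by level of expression. When the tested members were divided by level per kilobase into 4 bins of 27 or 28, the median log2 fold change was -0.32, -0.35, -0.34 and -0.31 from the lowest to the highest bin. The range was -6.24 to 4.37 in the lowest bin and -0.97 to 0.40 in the highest. In the highest bin, above 10.4 CPM per kilobase, no gene rose or fell in edgeR, in DESeq2 or with limma-voom. There 9 of 28 had an unadjusted p below 0.05, against 27.3% of the 110 tested members. A negative fold change was found in 22 of 28, against 74.5% of the 110. The wide range of the lowest bin is partly fixed by the binning, since a gene such as *clec-151* or *clec-17* that is near 0 in one group has a low mean over all libraries and passes the count filter only through the other group.

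Many of the genes sit in tandem runs. With at most 1 other protein-coding gene between neighbours, 87 of the 240 members fell into 17 runs of 3 or more. The largest run, 13 genes from *clec-40* to *clec-33* on chromosome V, had 4 tested members, all with a negative fold change between -1.13 and -0.44. The run of 5 genes from *clec-57* to *clec-55* on chromosome V (14469231 to 14482317) was tested whole, and all 5 had a fold change between -0.78 and -0.34, none past the thresholds. Runs with only a positive change had 1 tested member each, at 0.17 (*clec-93* to *clec-99*), 0.27 (*clec-104* to *clec-106*) and 0.056 (*clec-197* to *clec-202*). A negative fold change was found in 74.5% of the 110 tested members, so no direction is read from these runs. The run of 11 genes from *clec-67* to *clec-79* on chromosome IV (3922165 to 3975721) held *clec-73* and *clec-79*, which fell, beside 6 other tested members that did not pass. The 6 tested neighbours of *clec-73* and *clec-79* in this run had log2 fold changes between -0.92 and 0.84. Close copies in such runs can share reads, and reads that map to more than 1 place were not counted. *clec-15*, *clec-209* and *clec-249* each stand for 2 gene identifiers of equal exon length. Both copies of *clec-15* and of *clec-249* had no counts, so their expression cannot be read from this table.

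Near the edge of detection, the 2 untested members with the most counts were *clec-2* and *clec-29*. *clec-2* had 19, 7 and 7 counts in low worms and 4, 5 and 16 in high worms, and *clec-29* had 10, 5 and 9 against 14, 6 and 10. Neither separated the groups. Of the untested members, 16 had counts only in high and 7 only in low libraries. Some of these had 1 count in all, as *clec-93*, *clec-107*, *clec-114* and *clec-124*. The share over all untested genes was not computed, so no direction is read from these numbers. Among the 16, *clec-229* had the 19 counts given above. Another untested member, *clec-117*, named after its values were seen, had 33, 3 and 5 counts against 1, 1 and 0. In the fit without a filter on low counts *clec-117* had an adjusted p of 0.0419 and *clec-229* one of 0.0335.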

How the data were processed

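The authors deposited raw counts per gene for 6 libraries of poly(A) RNA, prepared with the NEBNext Ultra II kit and sequenced in pairs. Per the labels and the paper's methods, reads were trimmed with Trimmomatic 0.36, aligned with STAR 2.5.2b to an Ensembl *C. elegans* genome and counted with featureCounts (Subread 1.5.2) where uniquely aligned to exons. The release and the strand setting are not given in the sources used here. A second deposited table, of counts divided by size factors, was not used.

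High was tested against low without a covariate in R 4.3.3, with the robust quasi-likelihood F test of edgeR 4.0.16 after filterByExpr and TMM scaling. Thresholds were 0.05 for the adjusted p and 1 for the absolute value of the log2 fold change. The SE is the size of the log2 fold change over the square root of F. Alternatives used DESeq2 1.42.0, limma 3.58.1, other size factors, no filter, no robust step, no fold minimum, a replicate block and each library left out. Normalized counts are scaled to the mean effective library size. CPM use the effective size, and log2 CPM adds 2 counts. As a check of pairing, the deviation of each library from the mean of its group was correlated, across genes, between low and high. It gave 0.282, 0.259 and 0.345 for equal and negative values for unequal replicate numbers. The deviations of a group add up to 0, so positive values for equal numbers pull the others below 0, and these add no support. From the values for equal numbers in these same data, the numbers were taken to pair the libraries in the fit with the replicate block. The main test leaves this pairing out, as do all calls given without a named setting. The labels call the replicates biological and do not state such a pairing. Replicates differed beyond sampling noise, with a chi-square per gene of 44.6 or more. Self-tests on simulated counts were run first.

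Symbols came from a gene name table (43798 of 46756 identifiers). Positions and exon lengths came from Ensembl release 115 of WBcel235, in which all 240 members were found. No sequences are shown. The members and lists were chosen with earlier results of these data known, and the lists were written from general knowledge. Genes named are those past the thresholds in edgeR or DESeq2, the 5 of highest level per length, the 3 largest changes in each direction below an unadjusted p of 0.05, tested immune list members, the 2 untested genes with most counts and the 3 most like the *msp* sum. Others are named for their position or copies, or as stated. A gene of the sperm list is not reported here by name.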

Additional observations from a re-analysis of the deposited data

How the results depend on the processing

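Leaving out single libraries moved the number of members that rose, 4 with all libraries, to between 0 and 2, and the number that fell, 6 with all libraries, to between 0 and 9. In each such fit fewer samples were tested. Without a filter on low counts, with other size factors, DESeq2, limma-voom, no robust step, no fold minimum or the replicate block, between 3 and 5 members rose and between 6 and 9 fell, and all 6 genes that fell were among the latter each time. Of these settings, the share of all genes that passed was computed for DESeq2 and the replicate block only. The counts of the other settings therefore cannot be set against all genes. The replicate block gave 4 and 9, with *clec-86*, *clec-119* and *clec-169* added, and lost no call. The median log2 fold change of the tested members stayed between -0.40 and -0.26 in every setting. With 3 libraries a group, members with few counts are limited by counting error, which leaves the 100 untested members and the sizes of the falls of *clec-151* and *clec-153* open to wide error.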
